A study of Mus musculus with 11 samples.

Results

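The Srsf and Hnrnp genes were all gene symbols of the deposited matrix that read Srsf followed by a number or that began with Hnrnp, with processed pseudogene symbols left out. They numbered 31 of 25938 genes: 11 Srsf genes (Srsf1 to Srsf7 and Srsf9 to Srsf12) and 20 Hnrnp genes. The rule used no measured value. Nuclear RNA from mouse brain was profiled by droplet single-nucleus sequencing in 11 libraries holding 110304 nuclei. The mice carried a human transferrin receptor (TfR) knock-in, genotype label hTfR KI HOM, received 4 weekly intravenous doses and were sampled 72 h after the last. Counts are unique molecular identifiers (UMIs), 1 per captured RNA molecule, and were summed per library and per cell class as deposited.

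The control group received ATV:BACE1, a TfR-binding molecule with no antisense oligonucleotide (ASO), at 57 mg/kg per its sample labels (3 libraries); the series text, read literally, would put this group at 60 mg/kg as well. OTV:Malat1 (60 mg/kg, 3 libraries) is a TfR-binding molecule that carries an ASO against Malat1. nonTV:Malat1 (60 mg/kg, 3 libraries) joins the same kind of ASO to a molecule that does not bind TfR. Malat1 ASO is the oligonucleotide alone (2.5 mg/kg, 2 libraries). All mice, controls included, carried the knock-in and were dosed. Mice of replicate number 1 were females aged 2.33 months. Those of number 4 were males aged 2.57 months, and those of number 5 were males aged 2.33 months. The Malat1 ASO group has replicates 1 and 5 here. The labels give the brain region as posterior, whereas the deposited metadata give cortex, and the metadata give the strain as C57BL/6J without naming the knock-in. Nothing in the labels says how the mice were raised, so p-values measure the spread between these libraries.

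SR proteins, encoded by the Srsf genes, bind exonic enhancer sequences through RNA recognition motifs and recruit spliceosome components through domains rich in arginine and serine. Proteins of heterogeneous nuclear ribonucleoproteins (hnRNPs) coat nascent transcripts, and many oppose SR proteins at splice sites. Malat1, the ASO target, is a long nuclear RNA that gathers in nuclear speckles, where SR proteins are stored, and binds several of them. Many SR and hnRNP genes hold down their own level by splicing their transcripts into forms that are degraded by nonsense-mediated decay. In the GENCODE M21 annotation of GRCm38, 19 of the 31 genes had a transcript of that type (61.3%; 9 of 11 Srsf and 10 of 20 Hnrnp genes), compared with 26.1% of 15798 protein-coding genes tested in neurons. A retained-intron transcript was annotated for 22 of 31 (71.0%), compared with 53.4%. The UMI counts are per gene and do not tell these transcript forms apart.

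The promoters of Srsf2, Srsf7 and Hnrnpa0 are shown 5′ to 3′ from RefSeq (GRCm38.p6). Srsf2 and Srsf7 were the 2 members called as lower in both replicates 4 and 5 in oligodendrocytes, described further on. More members were called as lower in both in neurons. Hnrnpa0 differed in replicate 4 of the neurons. Each promoter window holds 250 bases before and 50 after the annotated start. Capitals mark the GC box GGGCGG and the CCAAT box, on either strand. All 3 genes lie on the minus strand, with windows at chr11:116853045-116853344, chr17:80207256-80207555 and chr13:58128507-58128806.
Srsf2: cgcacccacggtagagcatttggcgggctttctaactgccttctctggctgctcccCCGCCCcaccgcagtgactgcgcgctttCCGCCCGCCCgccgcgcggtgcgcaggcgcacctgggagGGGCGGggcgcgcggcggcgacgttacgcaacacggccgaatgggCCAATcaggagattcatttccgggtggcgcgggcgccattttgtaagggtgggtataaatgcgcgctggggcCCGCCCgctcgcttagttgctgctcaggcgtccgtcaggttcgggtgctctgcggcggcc
Srsf7: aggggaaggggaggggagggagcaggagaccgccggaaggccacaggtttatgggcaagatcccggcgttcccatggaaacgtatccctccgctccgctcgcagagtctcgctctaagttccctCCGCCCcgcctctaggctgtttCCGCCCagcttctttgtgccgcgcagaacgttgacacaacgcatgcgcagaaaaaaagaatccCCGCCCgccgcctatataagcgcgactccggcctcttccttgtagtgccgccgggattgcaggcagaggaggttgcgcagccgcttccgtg
Hnrnpa0: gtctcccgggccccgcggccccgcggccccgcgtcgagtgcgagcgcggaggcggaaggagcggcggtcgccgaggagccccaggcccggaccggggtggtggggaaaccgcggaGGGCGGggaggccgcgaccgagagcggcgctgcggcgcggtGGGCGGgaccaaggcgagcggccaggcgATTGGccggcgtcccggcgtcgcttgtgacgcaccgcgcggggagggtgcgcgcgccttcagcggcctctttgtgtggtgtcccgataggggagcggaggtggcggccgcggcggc
RefSeq held 41 promoters for 29 of the 31 genes. GGGCGG on either strand occurred in 34 of the 41 (82.9%), compared with 35.7% of all 32851 promoters of this length. CCAAT occurred in 21 (51.2%, against 37.4%), TGACG in 23 (56.1%, against 20.8%), CCGGAA in 17 (41.5%, against 14.9%) and TATAAA in 4 (9.76%, against 13.6%). These promoters had a median of 31 CG dinucleotides, compared with 7 over all promoters, and GGGCGG contains one. Such a match describes the letters of the window only.

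The library totals ran from 33235994 to 43972886 UMIs, with 7546 to 13840 nuclei, and 10.4% of nuclei carried a doublet call. Libraries shared 1495 of 108788 barcode sequences. Oligodendrocytes numbered 1004 to 1648 nuclei and 1031056 to 2162733 UMIs per library, and vascular endothelium 58 to 134 nuclei and 60084 to 204437 UMIs. In controls the 6 oligodendrocyte markers summed to 11294 to 12499 CPM (counts scaled to a common library total) in oligodendrocytes, and the 6 endothelial markers to 12722 to 15062 CPM in vascular endothelium. The 6 neuron markers (Snap25, Syt1, Rbfox3, Grin2b, Snhg11 and Meg3) summed to 1628 to 1897 CPM in control oligodendrocytes and 1548 to 1989 CPM in endothelium, against 17606 to 18325 CPM in neurons, and none was at 0. The nuclei named pericytes were rich in endothelial RNA: their 6 endothelial markers summed to 10210 to 12464 CPM in controls, somewhat below endothelium, and their 6 pericyte markers summed to 6200 to 6446 CPM, compared with 1093 to 1399 CPM in endothelium. In summed counts, fewer nuclei of a type and less RNA per nucleus cannot be told apart.

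Levels over the classes were described in the 3 control libraries, as CPM of the class, for the 8 classes with at least 20 nuclei in each control library. Comparisons were made within a gene, since counts were not scaled by gene length. By mean CPM, neurons were the lowest class for 19 of the 31 genes. Genes at large leaned the same way: of 2537 genes tested in all 8 classes, 40.8% were lowest in neurons, as were 14 of the 20 members among them. The highest class was vascular endothelium for 9, pericytes for 7 and microglia for 7. The share of all genes highest in each class was not computed, so these counts do not set the members apart from genes at large. Genes at large were above neurons there too, with median ratios of 1.871, 1.737 and 1.745. The tested members had medians of 1.699, 1.757 and 1.617. Oligodendrocytes were highest for 2 genes and lowest for 3.

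**Figure D1:**
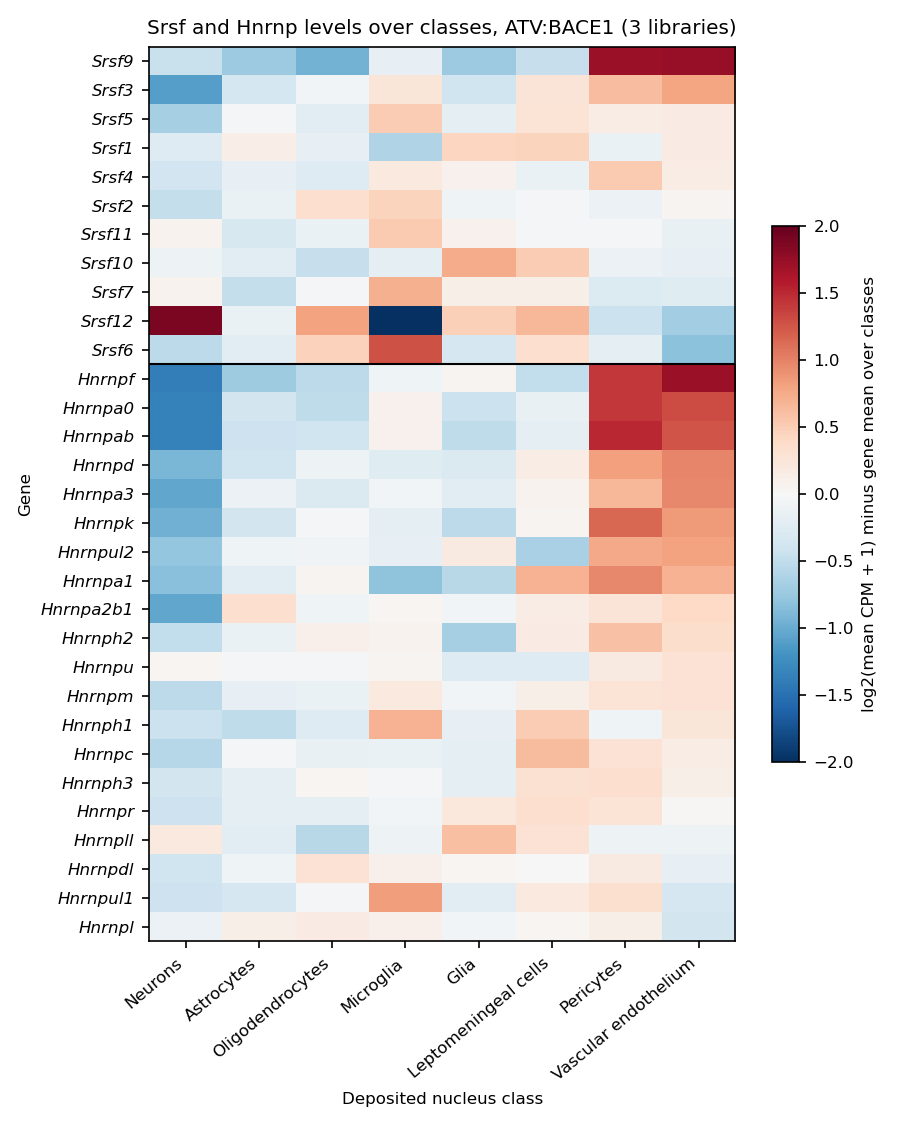
Each row is 1 gene and each column 1 deposited class. Colour gives log2(mean CPM + 1) over the 3 ATV:BACE1 libraries minus the gene's mean over the 8 classes, so red is above and blue below that mean. Most Hnrnp rows are blue in neurons, and the upper Hnrnp rows and Srsf9 are red in pericytes and vascular endothelium, whereas Srsf12 is red in neurons.

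In oligodendrocytes, 24 of 31 genes had a higher control mean than in neurons (77.4%), compared with 62.0% of the 12359 genes tested in both classes. The median ratio was 1.35, against 1.21 for all genes. The Hnrnp genes had a median ratio of 1.57 (18 of 20 higher) and the Srsf genes 1.07 (6 of 11 higher). In vascular endothelium 26 of the 31 genes passed the filter on low counts. Of these, 22 were higher than in neurons (84.6%, compared with 73.3% of 4446 genes), with a median ratio of 1.70, against 1.87 for all genes. The endothelial filter keeps genes with enough endothelial counts, so its ratios lie above 1 for genes at large. The 5 genes below it were Srsf6, Srsf12, Hnrnph2, Hnrnpll and Hnrnpul1.

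The SR genes differed in where they were high. Srsf9, which can act as a splicing repressor, was at 85.6, 83.2 and 106 CPM in the control endothelium libraries (replicates 1, 4 and 5) and at 22.1, 17.5 and 18.4 CPM in neurons. The groups did not overlap, and the mean was 4.75 times that of neurons in endothelium and 4.70 times in the nuclei named pericytes. The part of endothelial RNA in the pericyte value was not tested. In oligodendrocytes Srsf9 was at 11.05, 11.7 and 17.5 CPM, 0.693 times the neuron mean, and 1 of 11 libraries was higher than its neurons. Srsf12, an SR protein known to oppose other SR proteins, was high in neurons and low in endothelium. It was at 21.99, 19.3 and 22.2 CPM in neurons and at 11.6, 7.32 and 9.70 CPM in oligodendrocytes, and oligodendrocytes lay below neurons in 11 of 11 libraries. In control endothelium it had at most 1 UMI in a library. In control microglia it had 0 of 265303 UMIs, which allows up to 11.3 CPM (3 counts over the group), so its neuron mean was at least 1.87-fold higher. Srsf6, an SR protein studied in exon inclusion, was highest in microglia, at 123, 80.9 and 109 CPM on 7 to 11 UMIs. Its neurons held 35.2, 25.7 and 26.4 CPM, and its oligodendrocytes 63.6, 62.2 and 50.4 CPM, above neurons in 11 of 11 libraries. Microglia too were above neurons for Srsf6 in 11 of 11 libraries. Scaled by trimmed mean of M-values, microglial Srsf6 had a mean of 143 CPM in controls. That mean was 87.3 CPM under nonTV:Malat1, 79.1 under OTV:Malat1 and 89.0 under Malat1 ASO. Intervals and limits of the kind given for Srsf12 cover counting error only.

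Srsf3, one of the smallest SR proteins, and Srsf2, the SR protein known as SC35 that marks speckles, were both above neurons in 11 of 11 oligodendrocyte libraries. Control oligodendrocytes held Srsf3 at 110, 82.7 and 107 CPM, compared with 55.0, 39.6 and 49.6 CPM in neurons, a ratio of 2.08. The ratio for Srsf2 was 1.77. Srsf1, the SR protein that regulates splicing and mRNA export, was at 57.3, 58.5 and 54.3 CPM in oligodendrocytes and 57.1, 51.4 and 50.5 CPM in neurons. That is a small difference, with a ratio of 1.07, and 10 of 11 oligodendrocyte libraries were above their neurons.

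Several hnRNP genes were several-fold higher than in neurons in vascular endothelium and in the nuclei named pericytes, which also hold endothelial RNA. In endothelium the tested Hnrnp genes had a median ratio of 2.70 (16 of 17 higher). The Srsf genes had 1.44 (6 of 9 higher), against 1.87 for all genes. Hnrnpf, which binds runs of G, was at 296, 283 and 336 CPM in control endothelium and at 39.4, 28.7 and 35.5 CPM in neurons. Every endothelial library was above its neurons (11 of 11), and the ratio of means was 8.83. In oligodendrocytes Hnrnpf reached 70.0, 55.6 and 64.0 CPM, a ratio of 1.83. Hnrnpab, a binder of AU-rich RNA, was at 13.2, 99.9 and 57.3 CPM in endothelium on 2 to 7 UMIs, and at 9.13, 6.80 and 9.39 CPM in neurons. The endothelial spread of Hnrnpab was thus wide, while pericytes held 68.6, 51.3 and 82.7 CPM. Hnrnpk, a binder of C-rich sequence, had a ratio of 1.93 in oligodendrocytes, and Hnrnpa2b1, known for RNA transport, had the same ratio to 3 digits. Hnrnpu, a nuclear scaffold protein, varied little over the classes, from a mean of 154 CPM in glia to 227 CPM in endothelium, with 190 CPM in neurons and 179 CPM in oligodendrocytes. Hnrnpll, a regulator of alternative exons in lymphocytes, was below neurons in oligodendrocytes, with a ratio of 0.590.

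**Figure D2:**
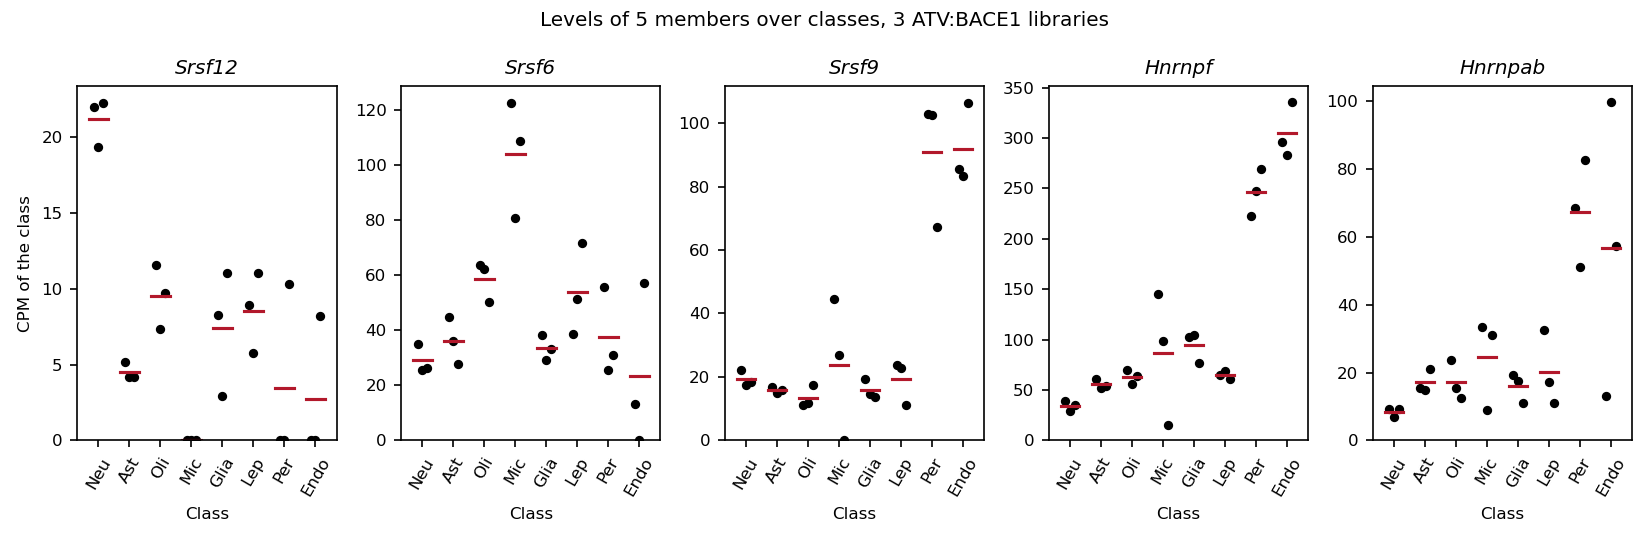
Points are the 3 ATV:BACE1 libraries and red lines their mean, in CPM of the class, for the 5 genes whose mean log2(CPM + 1) spans the widest range over classes; each vertical axis starts at 0 and has its own scale. Classes are neurons (Neu), astrocytes (Ast), oligodendrocytes (Oli), microglia (Mic), glia, leptomeningeal cells (Lep), pericytes (Per) and vascular endothelium (Endo). Srsf9 and Hnrnpf are high in the last 2 classes and Srsf12 is high in neurons.

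The genes whose mean log2 CPM over the 8 classes was most like that of Srsf2, among 2536 genes, were Mcts1 (Pearson r = 0.966), Babam2 (0.959) and Wnk1 (0.959). For Hnrnpu they were Clstn1 (0.916), Zc3h13 (0.907) and Thoc7 (0.901). Among the 19 other members searched, the most alike were Hnrnph1 for Srsf2 (0.723) and Hnrnpd for Hnrnpu (0.639). All these values describe 8 class means that share the same 11 libraries, controls and dosed groups together. Each is among the highest of many values over few points, and no link between genes was tested.

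The dosing comparison asks whether lowering Malat1 in the nucleus goes with a change in the RNA of the Srsf and Hnrnp genes. Against ATV:BACE1, the target Malat1 fell by 2.44 on the log2 scale under OTV:Malat1 in oligodendrocytes (95% interval -2.85 to -2.03, adjusted p = 2.868e-06) and by 1.84 in vascular endothelium (-2.21 to -1.47, adjusted p = 2.827e-07), with edgeR's quasi-likelihood test and Benjamini-Hochberg adjustment over all genes of the class. Malat1 was also called in microglia (-0.93, adjusted p = 0.00188), but not in the other 5 classes tested. There its change was -0.70 in neurons (adjusted p = 1), -1.56 in astrocytes (0.368), -0.81 in pericytes (0.0897), -0.51 in glia (0.897) and -0.33 in leptomeningeal cells (0.999). The target was thus lower in 8 of 8 classes and called in 3. In the other 5 the unadjusted 95% interval also lay below 0. It was -0.99 to -0.41 in neurons, -2.139 to -0.978 in astrocytes and -1.125 to -0.492 in pericytes. In glia it was -0.961 to -0.060, and in leptomeningeal cells -0.565 to -0.090. After adjustment over all genes of the class the test did not call that fall. An uncalled member there thus does not show that the member was unchanged. With the replicate number as a block Malat1 was called in 6 of 8 classes (neurons, adjusted p = 0.0476), and with DESeq2 also in 6. No Srsf or Hnrnp gene passed an adjusted p of 0.05 in that contrast under any of these 3 fits. Of 228 member tests over 8 classes, 0 were called by edgeR and 4 had an unadjusted p under 0.05 (1.75%, compared with 2.27% of all gene tests), and the lowest adjusted p was 0.972. Over all genes 0.00513% of tests were called. DESeq2 called 0, with 1 member test at an unadjusted p under 0.05. With the replicate number as a block, 0 were called and 5 had a p under 0.05, and 10 of all gene tests were called in place of 4. Without the block, the 4 at p under 0.05 were Hnrnph1 in astrocytes (log2 change 0.33), Hnrnpa1 in leptomeningeal cells (-1.22), Hnrnpdl in pericytes (-0.68) and Hnrnpa3 in vascular endothelium (-0.60).

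In oligodendrocytes all 31 genes were tested. The change was positive for 14 and negative for 17, with a median of -0.01 (all genes 0.00), and it ran from -0.23 for Srsf12 to 0.40 for Srsf9. The 95% interval lay within a 2-fold change either way for 30 of 31 genes, and within 0.5 on the log2 scale for 19. With the replicate number as a block those numbers were 31 and 24. The intervals printed for single genes are from the fit without that block, so they include the spread between replicate numbers. Their median half-width in oligodendrocytes was 0.36 on the log2 scale, compared with 0.28 with the block. The values below are CPM normalised by trimmed mean of M-values (TMM), listed for replicates 1, 4 and 5. Without TMM the median of all genes in oligodendrocytes moved by 0.10 on the log2 scale, to 0.10, and changes here are relative to the TMM scale. Malat1 alone stood at 90385 CPM in control oligodendrocytes.

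Srsf9 was at 11.01, 13.0 and 17.6 CPM in control oligodendrocytes and at 20.3, 15.7 and 16.5 CPM under OTV:Malat1. The groups overlapped, and the change was 0.40 (-0.22 to 1.02). Without nuclei under 1000 UMIs it was -0.04, in the other direction. Srsf6 was at 63.4, 69.0 and 50.9 CPM in controls and 48.2, 60.5 and 53.6 CPM under OTV:Malat1, a change of -0.19 (-0.56 to 0.17). Hnrnpf was at 69.7, 61.7 and 64.6 CPM in controls and at 57.2, 59.8 and 57.7 CPM under OTV:Malat1. Its groups did not overlap, but the interval of the change, -0.17 (-0.52 to 0.17), spanned 0. Hnrnpc, which binds runs of U and guards against the use of cryptic exons, was at 148, 110 and 121 CPM and at 144, 144 and 136 CPM, a change of 0.15 (-0.16 to 0.46).

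The SR genes Srsf1, Srsf2 and Srsf3 and the hnRNP genes Hnrnpk and Hnrnpu had intervals on both sides of 0 in oligodendrocytes. Srsf1 was at 57.1, 64.9 and 54.8 CPM in controls and 54.0, 70.2 and 54.4 CPM under OTV:Malat1, a change of 0.01 (-0.36 to 0.38). Srsf2 was at 204, 117 and 154 CPM and at 204, 148 and 131 CPM, a change of 0.03 (-0.46 to 0.51), and in both groups replicate 1 was the highest. Srsf3 was at 109, 91.7 and 108 CPM and at 100, 77.7 and 110 CPM (-0.10; -0.47 to 0.26). Hnrnpk was at 115, 101 and 81.3 CPM and at 89.2, 101 and 103 CPM (-0.04; -0.38 to 0.30), with opposite directions in replicates 1 and 5. Hnrnpu was at 172, 200 and 186 CPM and at 166, 214 and 183 CPM (0.01; -0.31 to 0.33). None of these 5 intervals reached a change of 2-fold, and they do not show that a gene was unchanged. The direction of each of the 5 turned with at least 1 of the libraries left out.

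**Figure D3:**
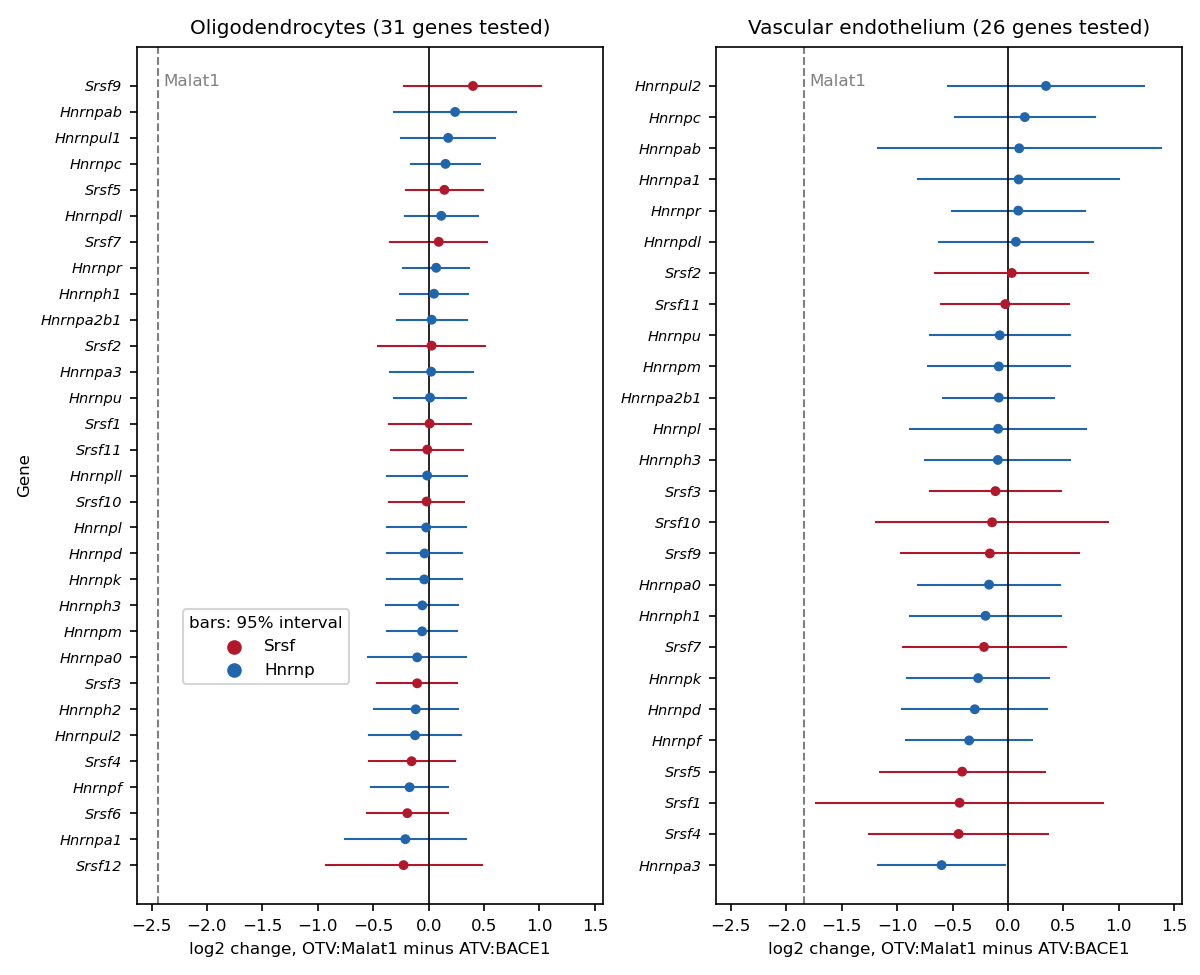
Points are log2 changes of each tested gene in OTV:Malat1 minus ATV:BACE1 (3 libraries each), bars their 95% intervals, red for Srsf and blue for Hnrnp; the dashed line marks the change in Malat1. In oligodendrocytes all 31 bars cross 0, and in vascular endothelium the bar of Hnrnpa3 ends at -0.03.

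In vascular endothelium 26 genes were tested on fewer counts, and the intervals were wider: 18 lay within a 2-fold change either way and 0 within 0.5 on the log2 scale. With the replicate number as a block those numbers were 19 and 0. The change was positive for 7 and negative for 19, with a median of -0.10 (all genes 0.00). Against the same controls it was positive for 9 and negative for 17 under nonTV:Malat1 (median -0.08). Under Malat1 ASO it was also positive for 9 and negative for 17 (median -0.04). Hnrnpa3, an hnRNP of the A/B group, was at 314, 357 and 282 CPM in controls and at 172, 191 and 267 CPM under OTV:Malat1. The groups did not overlap, although replicate 5 differed little between them, and the change was -0.60 (-1.17 to -0.03; adjusted p = 0.993 with edgeR). Hnrnpa3 was at 203, 270 and 278 CPM under nonTV:Malat1 and at 186 and 192 CPM under Malat1 ASO. Each of these contrasts shares the 3 control libraries, which were the 3 highest for this gene. Srsf4, an SR protein with a long arginine and serine domain, was at 99.1, 105 and 115 CPM in controls and 86.3, 78.5 and 63.6 CPM under OTV:Malat1, with no overlap and a change of -0.45 (-1.26 to 0.36).

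Hnrnpf was at 372, 357 and 428 CPM in control endothelium and at 377, 337 and 178 CPM under OTV:Malat1, so that its change of -0.35 (-0.92 to 0.22) rested on replicate 5. Srsf5, an SR protein first found as an insulin-induced gene, was at 223, 147 and 178 CPM and at 86.3, 168 and 191 CPM, and its change of -0.41 (-1.16 to 0.33) rested on replicate 1. Srsf1 was at 49.6, 126 and 94.0 CPM in controls and at 78.4, 0 and 102 CPM under OTV:Malat1 (-0.44; -1.73 to 0.86). Over the libraries of all groups its counts ran from 0 to 13 UMIs. Srsf2 was at 165, 168 and 146 CPM and at 165, 135 and 191 CPM (0.03; -0.65 to 0.72). Srsf3 was at 248, 189 and 251 CPM and at 204, 236 and 216 CPM (-0.11; -0.71 to 0.48). The library values of both genes overlapped between the groups. Without OTV:Malat1 replicate 4, the library with 0 UMIs, the change of Srsf1 was 0.10, and without OTV:Malat1 replicate 5 that of Srsf2 was -0.08.

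Hnrnpc was at 264, 105 and 199 CPM in control endothelium and at 220, 224 and 242 CPM under OTV:Malat1 (0.15; -0.48 to 0.78). Hnrnpk was at 272, 168 and 230 CPM and at 141, 202 and 254 CPM (-0.27; -0.91 to 0.37). Hnrnpu was at 314, 294 and 251 CPM and at 172, 325 and 344 CPM (-0.07; -0.71 to 0.56). For these 3 genes the direction differed between replicate numbers. Without ATV:BACE1 replicate 4 the change of Hnrnpc was -0.04, and without OTV:Malat1 replicate 1 that of Hnrnpu was 0.22. Markers of other cell types in the endothelial counts were not level either: the 6 pericyte markers summed to 1093 to 1399 CPM in controls and 933 to 1904 CPM under OTV:Malat1, and the 6 astrocyte markers to 732 to 1436 and 574 to 789 CPM. Their part in the endothelial values was not tested.

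The difference between classes was tested itself, as the OTV:Malat1 change in 1 class minus that in neurons within each library (limma). For oligodendrocytes 0 of 31 members were called and 0 had an unadjusted p under 0.05, with 0.00809% of genes called, the 1 gene being Malat1. For vascular endothelium 0 of 26 were called, 1 had an unadjusted p under 0.05 and 0% of genes were called. DESeq2 called 0 members in both.

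The other dosing contrasts gave no calls among the members. Under nonTV:Malat1 and Malat1 ASO against ATV:BACE1 the target was called in 0 of 8 classes by edgeR without the block and by DESeq2. In oligodendrocytes the Malat1 difference was -0.35 under nonTV:Malat1 (adjusted p = 1) and 0.06 under Malat1 ASO. In endothelium it was -0.43 and -0.72 (adjusted p = 1 and 0.325; the latter 0.00109 with the replicate number as a block). Their counts of 0 come from contrasts in which the target was not called lower, except for Malat1 ASO in endothelium with the block. With edgeR, nonTV:Malat1 against ATV:BACE1 had 0 of 228 member tests called and 4 at an unadjusted p under 0.05 (1.75%, compared with 2.05% of all gene tests; 0% of all tests called). With the replicate number as a block, 0 members were called and 10 had a p under 0.05 (4.39%, compared with 4.44%), and 20 of all gene tests were called. The 4 without the block were Hnrnph2 in glia (0.91; 0.29 to 1.52), Hnrnpul2 in glia (-0.69), Hnrnpc in leptomeningeal cells (-0.56) and Srsf9 in endothelium (-1.01; -1.89 to -0.13). Srsf9 was at 53.8, 50.7 and 67.1 CPM there, below the controls at 107, 105 and 136 CPM, and its change against the same controls was -0.16 under OTV:Malat1 and -0.17 under Malat1 ASO. Malat1 ASO against ATV:BACE1 had 0 of 228 called and 5 at p under 0.05 (2.19%, compared with 2.61% of all gene tests; 0% called). With the block, 0 members were called and 12 had a p under 0.05 (5.26%, compared with 7.02%), and 38 of all gene tests were called. The 5 without the block were Hnrnph2 in astrocytes (-0.50) and oligodendrocytes (-0.44), Hnrnpa0 in glia (-0.78), Srsf12 in oligodendrocytes (-0.90) and Hnrnpa3 in endothelium (-0.72). OTV:Malat1 had 0 of 239 called against nonTV:Malat1 (2 at p under 0.05; 0.00252% of all tests called) and 0 of 239 against Malat1 ASO (4 at p under 0.05; 0.00378% called). The 2 and 3 gene tests called there were Malat1 itself, in oligodendrocytes and endothelium and, against Malat1 ASO, also in microglia. With the block these contrasts had 0 members called, 5 and 7 members at p under 0.05, and 19 and 14 of all gene tests called. In all nuclei together, 0 members were called over 5 contrasts and 107045 gene tests (0% called), and 1 member, Srsf7 under Malat1 ASO, had a p under 0.05. DESeq2 called 0 member tests in each contrast, and 1, 0, 0 and 1 class tests had a p under 0.05 for nonTV:Malat1, Malat1 ASO, OTV:Malat1 against nonTV:Malat1 and OTV:Malat1 against Malat1 ASO.

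Genes that act with the family were uncalled in the dosing contrast with edgeR. In oligodendrocytes under OTV:Malat1, where 0.00809% of all genes were called, 0 of 10 tested kinases and regulators of SR and hnRNP proteins passed in either direction, and the same held for 0 of 16 speckle and SR-related genes, 0 of 19 other hnRNP-complex genes, 0 of 19 brain splicing regulators and 0 of 22 core spliceosome genes. In vascular endothelium, where 0.045% of all genes were called, the counts were 0 of 7, 0 of 16, 0 of 18, 0 of 11 and 0 of 17. Over the 5 lists 1 of 86 tests had an unadjusted p under 0.05 in oligodendrocytes and 1 of 69 in endothelium, and DESeq2 called 0 in each. The core spliceosome genes had a median change of -0.28 there, compared with 0.00 for all genes, and their median was -0.24 under nonTV:Malat1 and -0.28 under Malat1 ASO against the same controls. The lowest adjusted p of that list was 0.999 under OTV:Malat1.

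Calls among the members came with the replicate number, the other variable of the design. Replicates 1, 4 and 5 differ in sex or age and are batches 1, 3 and 4 of the deposited metadata, so batch cannot be told apart from sex between numbers 1 and 5, or from age between numbers 4 and 5. Numbers 1 and 5 share their age, and numbers 4 and 5 their sex. In an edgeR F-test of replicate number with the dosing group in the model, 29 of 239 member tests were called over 9 classes (12.1%), below the 20% of all gene tests. Of these, 21 of 31 were in neurons (67.7%, with 48.4% of genes called), 5 of 31 in oligodendrocytes (16.1%, with 17.9%) and 3 of 31 in astrocytes (9.68%, with 19.5%). In all nuclei 17 of 31 members were called, with 47% of all genes called. Of the 9985 neuron genes within the members' CPM range, 60.8% were called, so the share in neurons was near that of genes of like level, and the shares in oligodendrocytes and astrocytes were at or below the background. Of the genes that act with the family, those called in neurons were 7 of 10 kinases and regulators, 10 of 16 speckle and SR-related genes, 12 of 19 other hnRNP-complex genes, 13 of 21 brain splicing regulators and 13 of 22 core spliceosome genes. In oligodendrocytes, with 17.9% of genes called, the counts were 1 of 10, 4 of 16, 4 of 19, 8 of 19 and 2 of 22. Among the called brain splicing regulators, Celf3 (0.66), Elavl4 (0.50), Celf4 (0.40) and Rbfox1 (0.25) were higher in replicate 5 than in replicate 1. Celf2 (0.19) and Nova1 (0.02) differed less, and Qk (-0.39) and Mbnl2 (-0.27) were lower. The part of neuronal RNA in these differences was not tested. Leaving out 1 library lowered the 29 calls to 17 without nonTV:Malat1 replicate 1, Malat1 ASO replicate 1 or Malat1 ASO replicate 5. It lowered them to 19 without OTV:Malat1 replicate 1, ATV:BACE1 replicate 4, nonTV:Malat1 replicate 5 or OTV:Malat1 replicate 5.

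Srsf2 was the member with the lowest p in each of neurons, oligodendrocytes and astrocytes. In neurons its 4 libraries of replicate 1 lay between 109 and 126 CPM, the 3 of replicate 4 between 66.2 and 83.0 and the 4 of replicate 5 between 75.6 and 82.9. Replicate 1 did not overlap with the others, and the difference was -0.61 for replicate 4 and -0.58 for replicate 5 (adjusted p = 5.3e-05). In oligodendrocytes the ranges were 202 to 235, 117 to 148 and 131 to 154 CPM (-0.60 and -0.57; adjusted p = 0.000105). In astrocytes they were 141 to 156, 88.1 to 110 and 98.1 to 113 CPM (-0.51 and -0.49; adjusted p = 0.000582). The estimates for Srsf2 were below replicate 1 for both numbers in 9 of 9 classes. The 3 calls held under all 17 alternatives run for each.

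Srsf7, an SR protein that binds through a zinc knuckle, was lower alongside it. In oligodendrocytes it was at 227 to 260 CPM in replicate 1, 144 to 210 in replicate 4 and 152 to 245 in replicate 5 (-0.44 and -0.44; adjusted p = 0.0043). Its replicate 5 overlapped with replicate 1 through the Malat1 ASO library at 245 CPM, and without OTV:Malat1 replicate 1 the adjusted p was 0.0527. In neurons Srsf7 differed by -0.37 and -0.29 (adjusted p = 0.00269), and in astrocytes it was not called.

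**Figure D4:**
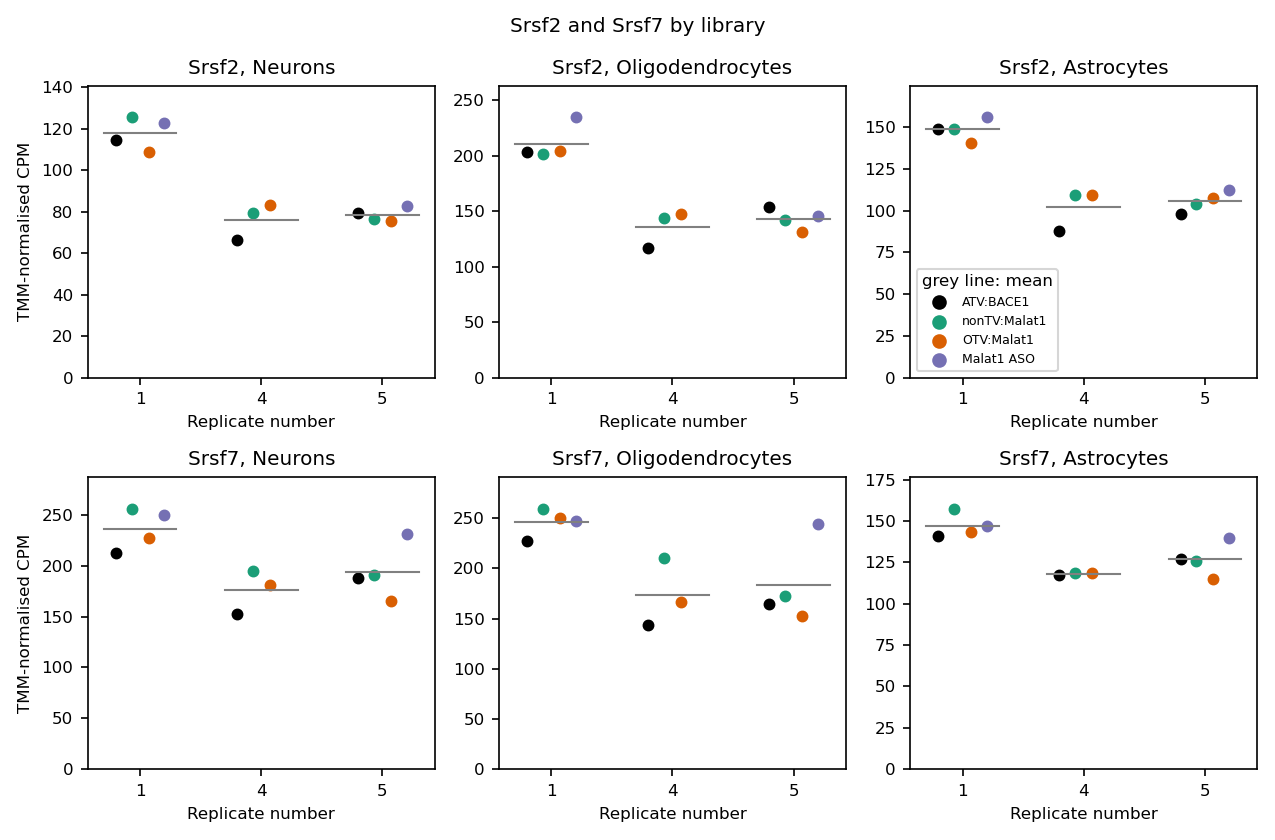
Points are TMM-normalised CPM of Srsf2 (top) and Srsf7 (bottom) in each of the 11 libraries, coloured by dosing group, with grey lines for the mean of each replicate number; axes start at 0. For Srsf2 the replicate 1 libraries lie above all others in neurons, oligodendrocytes and astrocytes, whatever the dosing group.

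Srsf2 (chr11:116849901-116853094, minus strand, GRCm38) is overlapped on the other strand by Mettl23 and Mfsd11, and whether counting used strand is not given in the sources used here, so reads may be shared. Mettl23 differed in neurons by -0.82 for replicate 4 and -0.33 for replicate 5 (adjusted p = 0.000108), but was not called in oligodendrocytes (-0.36 and -0.03; adjusted p = 0.520). In astrocytes Mettl23 was at -0.50 and -0.32 (adjusted p = 0.0848). Mfsd11 was at -0.07 and -0.18 in neurons (adjusted p = 0.0767), at -0.64 and -0.13 in oligodendrocytes (adjusted p = 0.049) and at 0.00 and -0.12 in astrocytes (adjusted p = 0.777). The part of shared reads in the Srsf2 difference was not tested. Srsf7 and Hnrnpa0 overlap no annotated gene.

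Of the 21 members called in neurons, 13 were lower in replicates 4 and 5, 3 were higher in both and 5 differed in direction. Among all genes called in neurons, 37.1% were lower in both. Hnrnpa0, an hnRNP made from a gene with 1 annotated transcript, was at 22.4 to 30.7 CPM in replicate 1, 18.1 to 19.3 in replicate 4 and 24.7 to 31.2 in replicate 5. Replicate 4 lay below both others (-0.51 against replicate 1, and 0.60 for replicate 5 minus replicate 4; adjusted p = 0.000476). Hnrnpll was at 90.3 to 116, 76.6 to 85.4 and 66.5 to 84.0 CPM (-0.30 and -0.47; adjusted p = 0.000493). Hnrnpr, an hnRNP active in axonal mRNA transport, was at 124 to 127, 103 to 113 and 96.5 to 105 CPM (-0.19 and -0.30; adjusted p = 0.00126). Srsf11, an SR protein linked to exon choice in neurons, was at 258 to 289, 233 to 247 and 207 to 233 CPM (-0.17 and -0.28; adjusted p = 0.00219). For Hnrnpll, Hnrnpr and Srsf11 the replicate 1 libraries did not overlap with the others. The 3 members higher in both were Hnrnpa1 (0.20 and 0.33), Hnrnpm (0.20 and 0.09) and Hnrnpa3 (0.13 and 0.22).

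**Figure D5:**
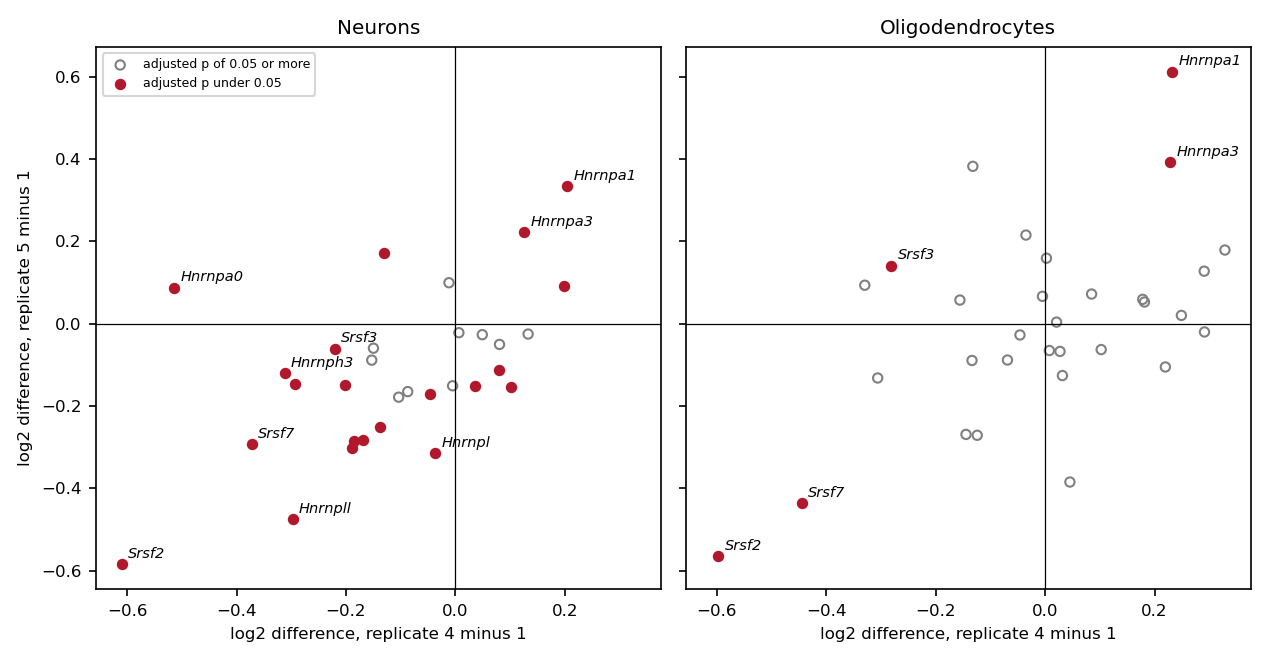
Each point is 1 of the 31 genes, placed by its log2 difference from replicate 1 in replicate 4 (horizontal) and replicate 5 (vertical); red points had an adjusted p under 0.05. In neurons most red points lie at the lower left, with Srsf2 the farthest, and in oligodendrocytes Srsf2 and Srsf7 lie at the lower left and Hnrnpa1 and Hnrnpa3 at the upper right.

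In oligodendrocytes the other 3 calls were Hnrnpa1 (0.23 and 0.61; adjusted p = 0.0181), Hnrnpa3 (0.23 and 0.39; adjusted p = 0.0264) and Srsf3 (-0.28 and 0.14; adjusted p = 0.046). Hnrnpa1, the most studied hnRNP splicing repressor, was at 23.6 to 49.3 CPM in replicate 1, 41.1 to 42.4 in replicate 4 and 49.0 to 53.8 in replicate 5. Its call ended in 5 of 17 alternatives, that of Hnrnpa3 in 9 and that of Srsf3 in 13. In astrocytes the calls for Hnrnpa2b1 (0.24 and -0.18) and Hnrnpm (0.34 and -0.02) ended in 9 and 11. These members were named after their values were seen.

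Depth, neuronal RNA and the mix of neurons moved with the replicate number too. The summed neuron markers in oligodendrocytes were at 1263 to 1628 CPM in replicate 1, 1548 to 2175 in replicate 4 and 1884 to 2430 in replicate 5. The median UMIs of an oligodendrocyte nucleus were 1013 to 1138, 844 to 1049 and 707 to 905 in the libraries of replicates 1, 4 and 5. Those of a neuron were 4071 to 4982, 3728 to 5259 and 2567 to 3830.5. The share of neurons in cluster 2 of the metadata was 19.1 to 28.8%, 17.2 to 20.9% and 15.9 to 17.4%. Within the 3 largest neuron clusters, 14 of 31 members were called in cluster 0 (43% of genes), 12 in cluster 1 (31.2%) and 13 in cluster 2 (39.8%). The smaller clusters had fewer calls, with 7 of 31 in cluster 5 (19% of genes) and 3 of 30 in cluster 9 (8.58%). With edgeR, 0 of 23 were called in cluster 6 (0.414%) and 0 of 21 in cluster 7 (0.857%), with 1 and 2 at an unadjusted p under 0.05; no other tool was run within clusters. The part of depth and of neuronal RNA was not tested.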

How the data were processed

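Nuclear RNA libraries of 11 mice were analysed. The deposited matrix holds whole UMI counts per gene symbol and nucleus with no normalization, per the file headers, and its sums equalled the deposited totals in 110304 nuclei. The deposited metadata give class, cluster, batch, doublet call and the percent of UMIs on mitochondrial genes. The submitters' processing notes name Cell Ranger 5.0.0, Seurat 4 and mm10. How the authors filtered nuclei is not given in the sources used here. Sample columns that could not be mapped numbered 0.

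Counts were summed per library and deposited class, doublets included, for classes with at least 20 nuclei in a library. They were tested with edgeR 4.0.16 in R 4.3.3 (TMM, filterByExpr, glmQLFit, glmQLFTest; all 4 groups in 1 fit; Benjamini-Hochberg over all genes of a class, threshold 0.05). Class differences used limma 3.58.1 on log2 CPM with a prior count of 2. The fits were tested on simulated data. DESeq2 1.42.0 was an alternative, by Wald test for dosing and class differences and by likelihood ratio test for replicate number. The others were total counts, Malat1 left out of library sizes and no filter. Doublets or nuclei under 1000 UMIs were also left out, a replicate block was added, and each library was left out in turn. Intervals are 95%. Python 3.11.15 with pandas 2.3.3, numpy 2.4.6 and matplotlib 3.10.9 made the sums, tables and plots.

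For the check of pairing, log2 CPM of all nuclei was centred within each dosing group. Same-numbered libraries of different groups deviated together: over 5837 genes r was 0.623 to 0.896 in 15 pairs. In 30 pairs of different number it was -0.876 to 0.483, and the centring itself pulls those values down. On the same-number values the libraries were taken as paired by number. Library values were given for members called in a dosing contrast, the 4 with the smallest p in oligodendrocytes and in endothelium, Srsf1, Srsf2, Srsf3, Hnrnpc, Hnrnpk and Hnrnpu, the 5 with the widest range over classes and the 5 with the smallest p for replicate number in neurons. The 3 genes most alike were named for Srsf2 and Hnrnpu. Members and lists were chosen with earlier results of these data known. The annotation was GENCODE M21, and 29 of 31 members matched a RefSeq promoter.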

Additional observations from a re-analysis of the deposited data

How the results depend on the processing

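The counts of called members for dosing and for class differences were 0 in 144 of 144 alternatives. With the replicate block, chosen because the libraries are paired by number, OTV:Malat1 against ATV:BACE1 had 0 calls and a lowest adjusted p of 0.710, and Malat1 ASO against ATV:BACE1 had 0 calls and a lowest adjusted p of 0.282. Among 338 alternatives for 19 named dosing results, 0 passed the threshold and 22 changed direction. Without nuclei under 1000 UMIs the log2 change was -0.0376 for Srsf9 and -0.0648 for Srsf2 in oligodendrocytes, and -0.0048 for Srsf2 and -0.209 for Hnrnpc in endothelium. Hnrnpk in oligodendrocytes was at 0.0634 with total counts, and Hnrnpu at -0.00257 without called doublets. With 1 library left out, the oligodendrocyte values ran from -0.121 to 0.0834 for Srsf1, -0.190 to 0.268 for Srsf2, -0.199 to 0.0223 for Srsf3, -0.151 to 0.0891 for Hnrnpk and -0.0908 to 0.0970 for Hnrnpu. The endothelial values ran from -0.799 to 0.0962 for Srsf1, -0.0772 to 0.137 for Srsf2, -0.0397 to 0.477 for Hnrnpc and -0.253 to 0.223 for Hnrnpu. The cause was not tested.

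The 29 calls for replicate number were 23 with DESeq2, 24 without doublets and 17 to 27 with 1 library left out. In neurons the 21 calls became 14, 12, 13, 7, 0, 0 and 3 within clusters 0, 1, 2, 5, 6, 7 and 9, an alternative chosen after seeing the data. The median half-width of the interval of the OTV:Malat1 change was 0.67 on the log2 scale in endothelium, which had fewer UMIs per library, and 0.36 in oligodendrocytes. With the replicate number as a block the half-widths were 0.65 and 0.28. The part of depth in that width was not tested.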
